A study of Mus musculus with 14 samples.

Results

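The genes described here belong to the p53 response: Mdm2, Cdkn1a, Ccng1, Ei24, Aen, Phlda3 and Sesn1. They were chosen by name, as all probe sets whose platform symbol was one of 8 listed genes. Of the 8, 7 had probe sets, out of 18194 genes on the array. The other one listed, Trp53, was not analysed here. The 7 genes were read by 18 probe sets, of which 13 reached a log2 value of 6 on at least 3 arrays. All 7 genes passed that filter on dim signals with their main probe set, the one with the highest mean over all arrays. Aen lay closest to it, at 6 or above on 7 of 7 mutant arrays and on 3 of 7 littermate arrays.

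Gene expression was measured on 14 Affymetrix mouse arrays, in RNA from the peripheral blood of embryos at E12.5. The first cross gave Cbfb+/MYH11 embryos (4 arrays), which carry 1 copy of the Cbfb-MYH11 fusion, and their WT littermates (4 arrays), both from Cbfb+/MYH11 animals mated to C57/Bl6. The second gave embryos labelled Cbfb-/- (3 arrays) and their Cbfb+/+ littermates (3 arrays), both from Cbfb+/- parents. Each RNA pool held blood of 8 to 10 embryos of 1 genotype, and no group received a treatment. Cbfb is the partner of the Runx transcription factors, and the human counterpart of the fusion is found in acute myeloid leukaemia. Each array title names it a technical replicate, so the p-values here speak of scatter among arrays that may be purely technical.

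The transcription factor p53 is activated by DNA damage and by other kinds of stress, including disturbed ribosome assembly, and it binds DNA as a tetramer over paired half-sites. Its targets halt the cell cycle, favour cell death or adjust metabolism and repair. In red cell precursors p53 is known for limiting the survival of cells with faulty ribosome production. Among the members, Mdm2 is the ubiquitin ligase that degrades p53 and is itself a p53 target. Cdkn1a encodes p21, the inhibitor of cyclin-dependent kinases, and Ccng1 encodes cyclin G1, which acts back on Mdm2. Ei24 encodes a membrane protein of the endoplasmic reticulum, Aen a nuclease linked to apoptosis, Phlda3 a repressor of Akt signalling and Sesn1 a sestrin that restrains mTORC1.

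To show where p53 motifs lie near these genes, RefSeq promoter windows of build GRCm38.p6 were read. Each covers 250 bases before and 50 bases after an annotated start. The windows were searched for the p53 consensus half-site of 10 bases, which is its own reverse complement, so that 1 search covers both strands. They were also searched for a full site, meaning 2 adjoining half-sites that both keep the core CNNG and together have at most 3 mismatches in 20 bases. A full site may overlap a half-site counted on its own. Printed below are 1 window for each of the 5 genes called in either mutant, 5′ to 3′, with half-sites and full sites in capitals. Where a gene has 2 windows, the one with a match is shown, and for Aen, with overlapping windows, the upstream one.
Cdkn1a: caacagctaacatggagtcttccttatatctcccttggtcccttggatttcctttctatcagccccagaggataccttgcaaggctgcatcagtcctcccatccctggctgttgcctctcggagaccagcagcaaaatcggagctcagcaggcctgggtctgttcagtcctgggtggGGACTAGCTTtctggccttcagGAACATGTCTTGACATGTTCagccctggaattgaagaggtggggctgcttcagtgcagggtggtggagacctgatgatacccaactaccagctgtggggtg
Ccng1: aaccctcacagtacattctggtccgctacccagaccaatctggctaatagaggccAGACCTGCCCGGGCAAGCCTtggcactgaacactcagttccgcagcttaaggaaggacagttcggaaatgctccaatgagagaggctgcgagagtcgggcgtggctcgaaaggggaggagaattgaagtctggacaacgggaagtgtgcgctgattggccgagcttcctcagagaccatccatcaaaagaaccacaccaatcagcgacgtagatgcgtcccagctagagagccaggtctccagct
Ei24: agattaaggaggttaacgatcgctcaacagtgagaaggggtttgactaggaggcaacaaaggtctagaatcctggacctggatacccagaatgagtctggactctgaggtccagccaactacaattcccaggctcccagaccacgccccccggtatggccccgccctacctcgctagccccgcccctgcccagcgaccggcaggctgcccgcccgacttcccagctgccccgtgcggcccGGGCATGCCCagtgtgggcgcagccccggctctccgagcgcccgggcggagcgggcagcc
Aen: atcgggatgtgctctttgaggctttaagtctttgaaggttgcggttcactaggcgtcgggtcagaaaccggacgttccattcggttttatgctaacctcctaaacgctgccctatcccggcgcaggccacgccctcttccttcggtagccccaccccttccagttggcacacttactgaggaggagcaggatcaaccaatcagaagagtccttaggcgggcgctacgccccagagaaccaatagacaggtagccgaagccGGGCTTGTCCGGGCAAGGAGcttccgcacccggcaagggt
Sesn1: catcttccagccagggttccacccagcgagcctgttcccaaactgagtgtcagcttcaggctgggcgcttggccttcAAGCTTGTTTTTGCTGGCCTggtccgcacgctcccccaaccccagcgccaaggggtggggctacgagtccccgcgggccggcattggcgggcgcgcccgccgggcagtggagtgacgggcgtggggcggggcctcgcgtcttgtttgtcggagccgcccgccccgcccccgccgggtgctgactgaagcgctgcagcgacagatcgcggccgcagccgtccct
The Cdkn1a window lies at chr17:29090729-29091028, plus strand, and the Ccng1 window at chr11:40755237-40755536, minus strand. Those of Ei24, Aen and Sesn1 lie at chr9:36797285-36797584, minus strand, at chr7:78895677-78895976, plus strand, and at chr10:41887189-41887488, plus strand. In the Cdkn1a window a full site with 1 mismatch began 51 bases before the annotated start, and a further half-site lay upstream of it. This start is the upstream one of the 2 annotated for Cdkn1a, and the window of the other start held no match. The Ccng1 full site also had 1 mismatch and began 195 bases before the start. The full sites of Aen and Sesn1 had 3 mismatches each, and Ei24 had a half-site only.

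Over the members, 7 of 10 windows, from 6 of 7 genes, held a half-site, against 8.36% of all 32851 windows of the same length. A full site was found in 5 of the 10 windows, from 4 genes, against 1.38% of all windows. The 2 Aen windows overlap and hold the same site, so these counts by window include it 2 times, while the counts by gene do not. The Mdm2 window held a half-site only, and the Phlda3 window held neither. A match is a description of letters and not a measured binding site, and sites outside these windows were not searched.

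The targeted gene itself was read by its main probe set, whose position relative to the targeted exons is not known here, so that it checks no label. Cbfb had log2 values of 8.44, 8.56, 6.91 and 7.06 on arrays labelled Cbfb+/MYH11 and 6.62, 6.57, 8.31 and 8.14 on WT arrays. The fusion group was thus higher than WT on arrays 1 and 2 and lower on arrays 3 and 4, with no common direction by genotype. It had 7.03, 6.8 and 6.98 on arrays labelled Cbfb-/- and 6.52, 6.56 and 6.27 on Cbfb+/+ arrays, and so was not lower in the group labelled null. All directions below therefore rest on the labels alone.

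Blood identity and array quality were checked next. The 7 measured erythroid markers, embryonic globins among them, had mean log2 levels between 12.79 and 13.14 on every array. Such a mean does not show single markers, and those that changed are given with the other cell markers below. Array medians lay between 4.27 and 4.46. In the first cross the arrays formed pairs: the SD of log2 differences across genes was 0.114 to 0.276 within arrays 1 and 2 or 3 and 4 of a genotype, against 0.364 to 0.714 between pairs. Afp, a liver and yolk sac product, stood at 11.97 and 11.86 in the first WT pair (arrays 1 and 2), against 6.33 and 6.20 in the other (arrays 3 and 4). Values within pairs are therefore given for the members and for some of the listed genes whose call they change. In bulk blood, fewer cells of a type and less RNA per cell cannot be told apart.

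The first comparison asks how p53 response genes stood in fusion-carrying blood relative to WT littermates. Cdkn1a, Ccng1, Ei24 and Aen rose, by 2.61-fold, 2.42-fold, 1.66-fold and 1.58-fold. Mdm2, Phlda3 and Sesn1 did not meet the call, which requires an adjusted p under 0.05 in limma and a change of at least 1.5-fold, or 0.585 on the log2 scale. So 4 of 7 tested members rose and 0 fell, while 30.5% of all 7393 tested genes rose and 5.63% fell. The median change of the members was 0.66 on the log2 scale, against 0.26 for all tested genes. The plot of values by array shows each gene in all groups.

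**Figure D1:**
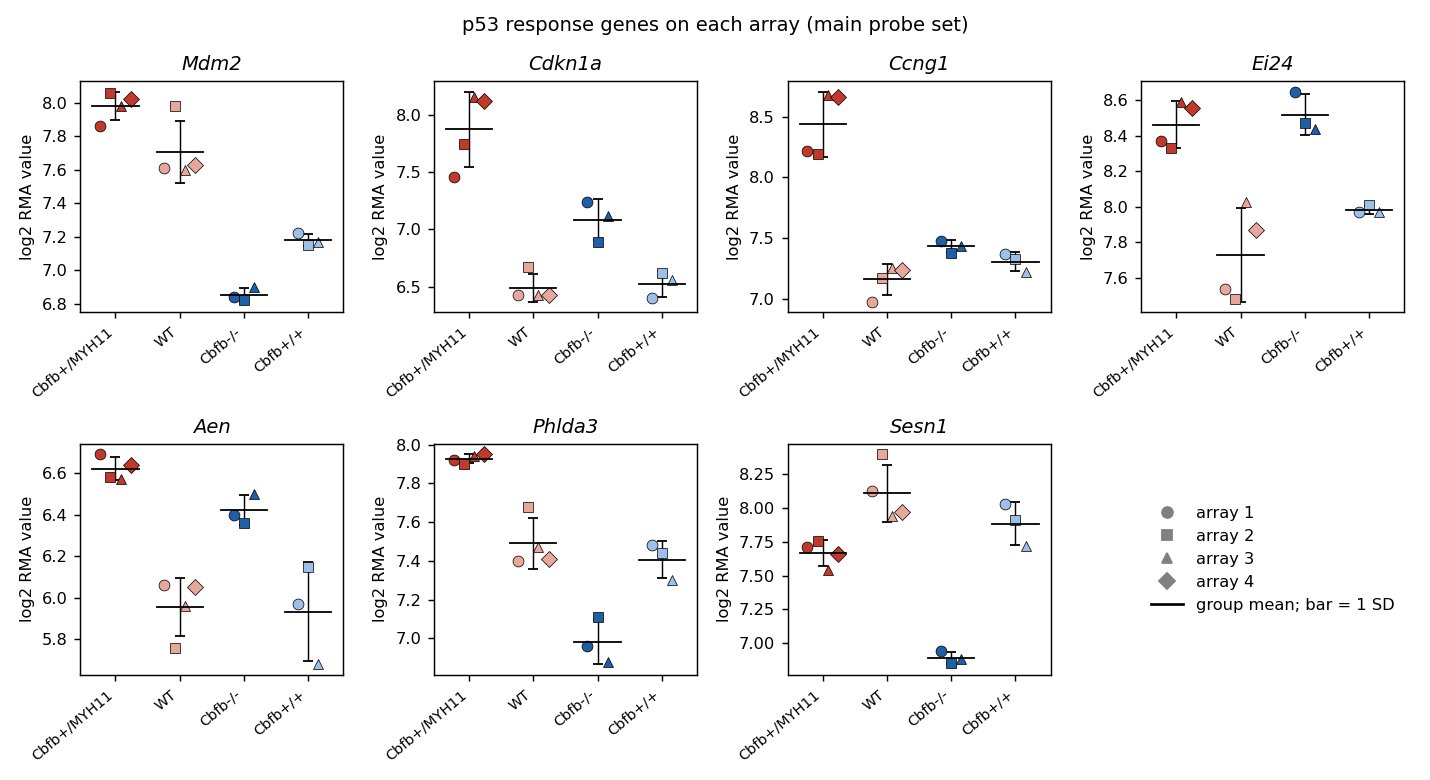
Log2 RMA values of the main probe set of 7 p53 response genes on each of 14 arrays, with symbols for array numbers, lines for group means and bars for 1 SD. The Cdkn1a and Ccng1 values of Cbfb+/MYH11 arrays lie above those of all other groups, and the Sesn1 values of Cbfb-/- arrays, 6.85 to 6.94, lie below them.

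The largest changes of the group were those of Cdkn1a and Ccng1. Cdkn1a had log2 values of 7.46, 7.75, 8.16 and 8.12 on Cbfb+/MYH11 arrays 1 to 4, against 6.43, 6.67, 6.43 and 6.43 on WT arrays. All fusion arrays were above all WT arrays, and arrays 3 and 4 were the highest. The means were 7.87 ± 0.33 and 6.49 ± 0.12 (SD, n = 4 each), a 2.61-fold rise (95% interval 2.09 to 3.24; limma, Benjamini-Hochberg adjusted p = 7.98e-06). The change was 1.05 within arrays 1 and 2 and 1.71 within arrays 3 and 4, and it was called in both. Its second probe set rose as well, by 0.93 (fit over all probe sets with limma, adjusted p = 4.83e-05, where 30.4% of them rose).

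Ccng1 had log2 values of 8.22, 8.19, 8.68 and 8.66 on Cbfb+/MYH11 arrays and 6.98, 7.17, 7.26 and 7.24 on WT arrays. The groups did not overlap, and the lowest fusion array lay well above the highest WT array. The rise was 2.42-fold (95% interval 2.02 to 2.90; limma, adjusted p = 3.19e-06), with group means of 8.44 ± 0.27 and 7.16 ± 0.13 (SD, n = 4 each). It was called within both array pairs, at 1.13 and 1.42 on the log2 scale. The other probe sets of Ccng1 rose by 1.51 each. Cdkn1a and Ccng1 ranked 439 and 569 from the top among the changes of 7393 genes, so many genes changed more than they did.

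The other called members, Ei24 and Aen, changed less. Ei24 had log2 values of 8.37, 8.33, 8.59 and 8.56 on Cbfb+/MYH11 arrays and 7.54, 7.48, 8.03 and 7.87 on WT arrays, with no overlap. It rose by 0.73 (95% interval 0.47 to 0.99; limma, adjusted p = 2.31e-04). WT arrays 1 and 2 were the lowest, and without them the change was 0.51 and no longer called. Aen had log2 values of 6.69, 6.58, 6.57 and 6.64 on Cbfb+/MYH11 arrays and 6.06, 5.76, 5.96 and 6.05 on WT arrays. It rose by 0.66 (95% interval 0.44 to 0.89; limma, adjusted p = 1.55e-04), again without overlap. Both were called within each array pair, Ei24 at 0.84 and 0.62 and Aen at 0.72 and 0.60. A dimmer Aen probe set, under the filter, was at 5.33 to 5.72 on fusion arrays and 4.55 to 5.07 on WT arrays. The remaining Aen probe sets, at 3.48 to 4.86 on these arrays, overlapped between the groups.

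The other members stayed under the fold floor. Phlda3 had log2 values of 7.92, 7.90, 7.94 and 7.95 on Cbfb+/MYH11 arrays and 7.40, 7.68, 7.47 and 7.41 on WT arrays. Its change was 0.44 (limma, adjusted p = 7.10e-04), without overlap, and 0.37 and 0.51 within the array pairs. Mdm2 had log2 values of 7.86, 8.06, 7.98 and 8.02 on Cbfb+/MYH11 arrays and 7.61, 7.98, 7.60 and 7.63 on WT arrays, which overlap through WT array 2. Its change of 0.28 (limma, adjusted p = 0.0192) lay at the median of all genes, and it was 0.17 and 0.39 within the pairs. Sesn1 was the one member below WT: its log2 values were 7.71, 7.76, 7.54 and 7.66 on Cbfb+/MYH11 arrays and 8.13, 8.40, 7.94 and 7.97 on WT arrays, a change of -0.45 (limma, adjusted p = 0.00325), or -0.53 and -0.36 within the pairs. Of the 7 main probe sets, 6 had groups that did not overlap, 5 with the fusion arrays higher and 1 with them lower. Over all tested genes, 39.5% and 13.6% did so in these directions.

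The size of the smaller changes depended on scaling. After quantile normalization the median change of all genes moved to -0.02, Cdkn1a and Ccng1 kept their calls, and those of Ei24 (0.31) and Aen (0.44) ended. Sesn1 (-0.84) was then called lower, and Mdm2 turned to -0.128. Relative to the median of 0.26, the changes were 1.12 for Cdkn1a, 1.01 for Ccng1, 0.47 for Ei24, 0.40 for Aen, 0.18 for Phlda3, 0.02 for Mdm2 and -0.71 for Sesn1. With arrays averaged to 6 putative pools, no member passed (limma, lowest adjusted p = 0.0974, for Cdkn1a), while 18 of all genes did.

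The second comparison asks the same of blood labelled Cbfb-/-. Here Sesn1 fell by 0.997 on the log2 scale, and the other 6 members did not meet the call. Thus 0 of 7 rose and 1 fell, against 19.5% and 6.65% of all tested genes. The members' median change was 0.12, beside 0.13 for all genes. Several changes lay just under the fold floor with adjusted p-values under 0.05, and they went both ways.

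Sesn1 had log2 values of 6.94, 6.85 and 6.88 on Cbfb-/- arrays, against 8.03, 7.91 and 7.72 on Cbfb+/+ arrays. The Cbfb-/- values were the lowest of all 4 groups and lay close together. The means were 6.89 ± 0.05 and 7.89 ± 0.15 (SD, n = 3 each), which is 2.00-fold lower in Cbfb-/- blood (95% interval 1.66 to 2.40; limma, adjusted p = 2.00e-04). Both further probe sets past the filter fell too, by 1.14 and 1.27 (probe-set fit, limma adjusted p = 2.23e-04 and 4.80e-04, where 7.31% of probe sets fell). The remaining Sesn1 probe set, under the filter, was at 2.99 to 3.49 over all arrays.

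Cdkn1a had log2 values of 7.24, 6.89 and 7.12 on Cbfb-/- arrays and 6.40, 6.62 and 6.56 on Cbfb+/+ arrays. The groups did not overlap, but the change of 0.56 (95% interval 0.19 to 0.92; limma, adjusted p = 0.019) was under the floor. It was called with arrays centred on their medians (0.61), without Cbfb-/- array 2 (0.66) and without Cbfb+/+ array 2 (0.60). The second Cdkn1a probe set changed less, by 0.26 (95% interval -0.04 to 0.57; probe-set fit, limma adjusted p = 0.144), and was not called. Ei24 had log2 values of 8.65, 8.47 and 8.44 on Cbfb-/- arrays and 7.97, 8.01 and 7.97 on Cbfb+/+ arrays, a change of 0.54 (limma, adjusted p = 0.00959). Aen had log2 values of 6.4, 6.36 and 6.5 on Cbfb-/- arrays and 5.97, 6.15 and 5.68 on Cbfb+/+ arrays, a change of 0.49 (limma, adjusted p = 0.00723). Centring the arrays brought Ei24 over the floor (0.59), and leaving out Cbfb+/+ array 2 did so for Aen (0.60). On the main probe sets of both genes every Cbfb-/- array was above every littermate array. The dimmer Aen probe set, under the filter, was at 5.52 to 6.01 on Cbfb-/- arrays and 4.23 to 4.49 on Cbfb+/+ arrays. Its means were 5.74 and 4.36 there, a wider gap than in the fusion cross, with 5.55 and 4.73. The remaining Aen probe sets overlapped between the groups here too.

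Ccng1, in contrast to the fusion cross, differed little: its log2 values were 7.48, 7.38 and 7.44 on Cbfb-/- arrays and 7.37, 7.33 and 7.22 on Cbfb+/+ arrays. The change was 0.12 (95% interval -0.18 to 0.42; limma, adjusted p = 0.477), or -0.092 after quantile normalization. Phlda3 had log2 values of 6.96, 7.11 and 6.88 on Cbfb-/- arrays and 7.48, 7.44 and 7.30 on Cbfb+/+ arrays, a change of -0.42 (limma, adjusted p = 0.00545). Mdm2 had log2 values of 6.84, 6.82 and 6.90 on Cbfb-/- arrays and 7.22, 7.15 and 7.17 on Cbfb+/+ arrays, a change of -0.33 (limma, adjusted p = 0.0257). Neither was called, although Phlda3 was after quantile normalization (-0.63). None of the 7 main probe sets had overlapping groups here, with Cbfb-/- arrays higher for 4 and lower for 3. Over all tested genes, 44.3% and 25% did so in these directions. Relative to the median of 0.13, Cdkn1a was at 0.42, Ei24 at 0.40, Aen at 0.36, Ccng1 at -0.01, Mdm2 at -0.46, Phlda3 at -0.56 and Sesn1 at -1.13.

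**Figure D2:**
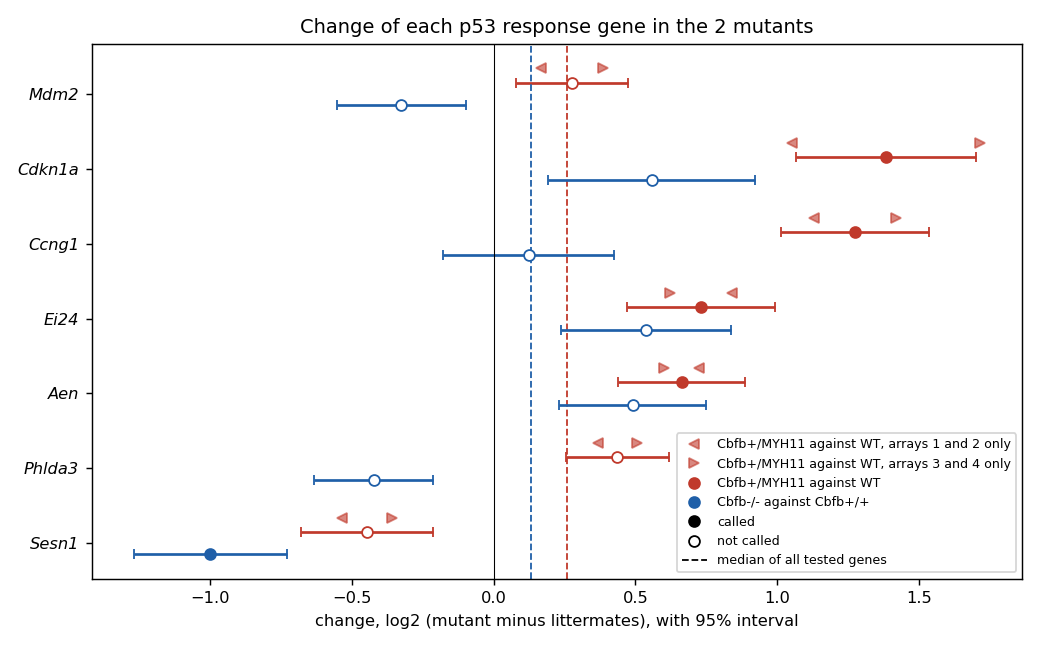
Change of each member on the log2 scale, mutant minus littermates, in Cbfb+/MYH11 (red) and Cbfb-/- blood (blue), with 95% intervals, filled points for called changes, triangles for the changes within arrays 1 and 2 or 3 and 4, and dashed lines for the median of all tested genes. Cdkn1a and Ccng1 are furthest to the right in Cbfb+/MYH11 blood, at 1.38 and 1.27, and Sesn1 is furthest to the left in Cbfb-/- blood, at -0.997.

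Whether a member responded differently in the mutants was tested as the difference of the effects, fusion effect minus null effect. Ccng1, Phlda3, Cdkn1a and Mdm2 differed, all with the higher effect in the fusion cross, so 4 of 7 members passed in that direction, against 14.9% of all tested genes. For Ccng1 the difference was 1.15 (95% interval 0.75 to 1.55; limma, adjusted p = 5.79e-04). For Phlda3, higher than littermates in one mutant and lower in the other, it was 0.86 (95% interval 0.58 to 1.14; adjusted p = 3.34e-04). The difference was 0.82 for Cdkn1a (adjusted p = 0.0157) and 0.60 for Mdm2 (adjusted p = 0.00677).

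The call for Mdm2 stood at the floor: it ended after quantile normalization (0.41), with the mean of its probe sets (0.53), within arrays 1 and 2 (0.49) and without any 1 of 6 arrays, at 0.57 to 0.58. Within arrays 3 and 4 it was called, at 0.71 (adjusted p = 0.00117). That for Cdkn1a ended within arrays 1 and 2 (0.49) and was met within arrays 3 and 4 (1.16). Ccng1 and Phlda3 were called within both pairs. For Ei24 and Aen the difference was 0.19 (95% interval -0.20 to 0.59) and 0.17 (95% interval -0.17 to 0.51), so neither a difference nor equal effects can be stated. Sesn1 was at 0.55 (adjusted p = 0.0258), under the floor, and passed it with arrays centred on their medians (0.61) and within arrays 3 and 4 (0.64, adjusted p = 0.00244).

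**Figure D3:**
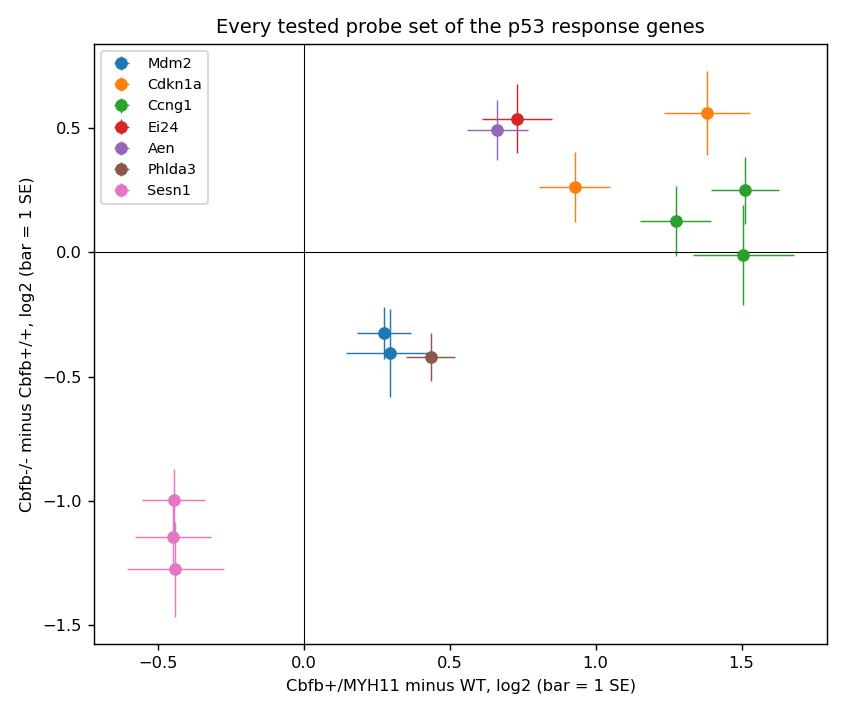
Each of the 13 probe sets past the filter, placed by its log2 change in Cbfb+/MYH11 blood (horizontal) and in Cbfb-/- blood (vertical), with bars of 1 SE and a colour per gene. Probe sets of Ccng1 lie at 1.27 to 1.51 and near 0, and those of Sesn1 at -0.44 to -0.45 and -0.997 to -1.27. The Cdkn1a probe sets lie apart, the main one at 1.38 and 0.56 and the second at 0.93 and 0.26.

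The probe sets past the filter gave the same direction as the main one in both mutants, apart from 1 Ccng1 probe set at -0.01 in Cbfb-/- blood. The second Mdm2 probe set was at 0.30 with the fusion and -0.41 in Cbfb-/- blood, and neither was called. Sesn1 probe sets lay between -0.44 and -0.45 with the fusion. In the test of the difference between effects, both further Sesn1 probe sets passed, at 0.70 and 0.83 (probe-set fit, limma adjusted p = 0.0213 and 0.028, where 14.7% of probe sets passed with the higher effect in the fusion cross).

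Wild-type littermates of the crosses, which share the genotype at Cbfb, gave a scale for differences of cross and pool together, which cannot be told apart here. Of the 7 members, 0 were called between Cbfb+/+ and WT blood (limma, 1 at an unadjusted p under 0.05), against 11.2% of all tested genes. Mdm2 came closest, with a mean of 7.18 ± 0.03 in Cbfb+/+ blood (SD, n = 3) and 7.70 ± 0.19 in WT blood (SD, n = 4). That change of -0.52 (limma, adjusted p = 0.00205) was larger in size than either mutant change of Mdm2. It was called against WT arrays 1 and 2 alone (-0.61), and the second Mdm2 probe set was called over all arrays, at -0.62 (probe-set fit, limma adjusted p = 0.0154). The other members ranged from -0.22 for Sesn1 to 0.25 for Ei24.

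The order of the group means differed by gene. For Cdkn1a and Ccng1 the fusion group was highest, followed by Cbfb-/-, Cbfb+/+ and WT, and from Cbfb-/- downwards neighbours in that order were not called different. On its main probe set Aen had the fusion group first (6.62 ± 0.05, n = 4) and Cbfb-/- next (6.42 ± 0.07, n = 3), with the littermates at 5.96 and 5.93. The dimmer Aen probe set, under the filter, had Cbfb-/- first (5.74) and the fusion group next (5.55). For Ei24 Cbfb-/- (8.52 ± 0.11, n = 3) and Cbfb+/MYH11 (8.46 ± 0.13, n = 4) stood together above the littermates, within their SDs of each other. For Mdm2, Phlda3 and Sesn1 the Cbfb-/- group was the lowest of all.

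Other genes of the pathway came from lists that were likewise chosen with earlier results known. Of 40 further p53 targets in arrest, death, repair and metabolism, 36 had probe sets and 16 passed the filter. With the fusion 4 of these 16 rose and 0 fell, or 4 and 2 after quantile normalization, with a median change of 0.05 (0.26 over all genes). Over all tested genes 30.5% rose, so 4 of 16 is not above the background. In Cbfb-/- blood 3 rose and 5 fell, or 2 and 7 after quantile normalization and 3 and 3 with arrays centred on their medians, with a median of -0.35 (0.13 over all genes), where 19.5% of all tested genes rose and 6.65% fell. Without the filter, 7 of 36 rose and 0 fell with the fusion, where 14.4% of all 18194 genes rose and 4.17% fell. In Cbfb-/- blood 4 of the 36 rose and 5 fell without it, where 9.66% of all genes rose and 3.81% fell. The rises with the fusion were those of Pcna, the sliding clamp of DNA replication, by 1.93, Siva1, a proapoptotic gene, by 1.47, Rps27l, a ribosomal protein homologue, by 1.29 and the antiproliferative gene Btg2 by 1.14. The Siva1 rise rested on WT arrays 1 and 2: WT values ran between 5.69 and 7.94, and the change was 2.37 within arrays 1 and 2 but 0.57, not called, within arrays 3 and 4, and 0.39, not called, without those WT arrays. Pcna, Rps27l and Btg2 were called in each of these settings. Pcna and Rps27l also rose in Cbfb-/- blood, by 1.499 and 0.77. Siva1 did so by 1.36 (limma, adjusted p = 0.0463), a call that ended after quantile normalization and on leaving out any 1 of 10 of the 14 arrays.

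Of 5 tested arrest targets, the effects of 3 differed between the mutants. Btg2 and Gadd45a had the higher effect in the fusion cross, as did 14.9% of all tested genes. Zfp385a had the lower one there (-0.72; limma, adjusted p = 0.00427), as did 443 of 7390 main probe sets in the probe-set fit with the same filter. For Zfp385a the difference was called within arrays 1 and 2 (-0.86) but not within arrays 3 and 4 (-0.58). Btg2 had a mean of 8.42 ± 0.06 in Cbfb+/MYH11 blood, against 7.28 ± 0.14 in WT blood (SD, n = 4 each). In Cbfb-/- blood it fell to 7.07 ± 0.16, against 7.68 ± 0.08 in Cbfb+/+ blood (SD, n = 3 each), and the difference of the effects was 1.75 (limma, adjusted p = 2.86e-06). Gadd45a, a stress sensor of growth arrest, was at 10.43 ± 0.09 in Cbfb+/MYH11 blood and 9.95 ± 0.27 in WT blood (SD, n = 4 each), a change of 0.48 under the floor. That change was 0.33, not called, within arrays 1 and 2 and 0.63, called, within arrays 3 and 4. Gadd45a fell by 0.93 in Cbfb-/- blood, and its effects differed by 1.41 (limma, adjusted p = 7.55e-05). Sertad1, Bbc3, which encodes the death activator PUMA, and Abhd4 fell in Cbfb-/- blood by 0.67, 0.61 and 0.64. With the fusion they were at -0.11, -0.46 and -0.07. Bbc3 was called lower with the fusion within arrays 1 and 2 (-0.65) but not within arrays 3 and 4 (-0.28).

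Of 19 regulators of p53, 15 were tested. With the fusion 4 rose and 0 fell, or 3 and 2 after quantile normalization, and in Cbfb-/- blood 2 rose and 1 fell, or 2 and 2. These counts are not above the 30.5% and 19.5% of all tested genes that rose, and the medians were 0.08 and 0.12, against 0.26 and 0.13 over all genes. The risers with the fusion were the checkpoint kinase genes Chek2 (1.17) and Chek1 (1.14), the acetyltransferase gene Kat5 (1.03) and Rpl11 (0.81), a ribosomal protein that can bind Mdm2. Chek1 reached the filter only through fusion arrays, and Rpl11 was at 0.52, not called, without WT arrays 1 and 2. Chek1 (1.29) and the nucleolar gene Npm1 (1.62, a call that ended on leaving out any 1 of 6 arrays) rose in Cbfb-/- blood, and the kinase gene Hipk2 fell there by 0.64. Mdm4, the partner of Mdm2, was at -0.38 and -0.17, and the phosphatase gene Ppm1d at -0.05 and -0.34, in the order fusion and null.

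**Figure D4:**
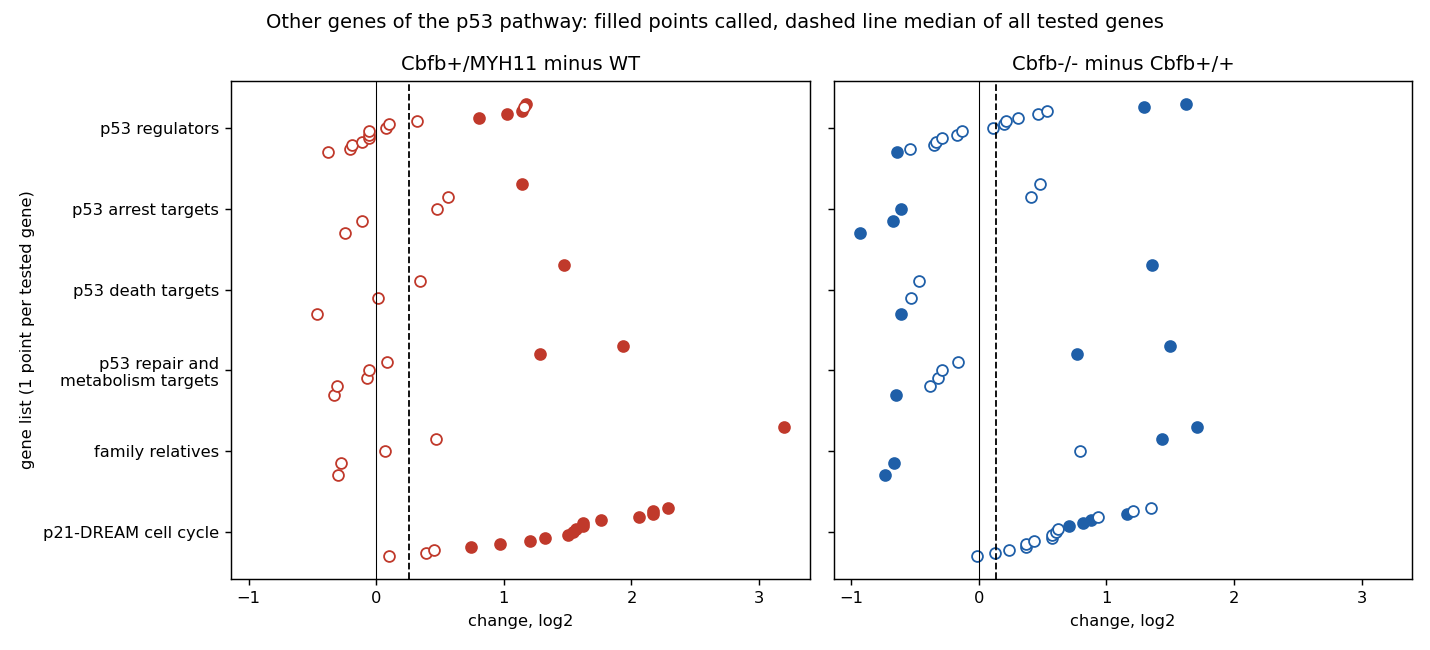
Log2 change of each tested gene in 6 lists around p53, in Cbfb+/MYH11 blood (left, minus WT) and Cbfb-/- blood (right, minus Cbfb+/+), with filled points for called changes and a dashed line for the median of all tested genes. The cell cycle genes lie mostly to the right in Cbfb+/MYH11 blood, where 14 of 17 rose, while the further p53 targets spread to both sides in Cbfb-/- blood.

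A further list holds cell cycle genes that p21 is known to repress through the DREAM complex. With the fusion, where Cdkn1a was highest, 14 of 17 tested members of this cell cycle list rose and 0 fell, with a median change of 1.55, against 30.5% of all tested genes that rose and a median of 0.26. Ccne2, Mybl2 and Cdk2 reached 6 on fewer than 3 littermate arrays and so passed the filter through mutant arrays, which favours a rise. Without the filter the count was 14 of 18, where 14.4% of all genes rose. Mki67 rose by 1.21, Birc5 by 1.62, Ccna2 by 1.32 and Aurka by 1.5, and of the genes helped by the filter Mybl2 rose by 1.62 and Ccne2 by 2.17. All 6 were called within both array pairs. In Cbfb-/- blood 4 of 17 rose and 0 fell, near the 19.5% of all tested genes, with a median of 0.61. They were Aurka, Plk1, Cdk1 and Ccne2, which was under 6 on every array of that cross, while 1 rose after quantile normalization and 9 when only the arrays of that cross were fitted. The mean level of the list was 8.12 to 8.23 on Cbfb+/MYH11 arrays, against 6.24 and 6.42 on WT arrays 1 and 2 and 7.37 and 7.32 on WT arrays 3 and 4. It was 7.90 to 7.98 on Cbfb-/- arrays and 7.28 to 7.30 on Cbfb+/+ arrays.

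Markers of other cells differed between the groups as well, and their part in the changes of the p53 response genes was not tested. The mean log2 level of 8 macrophage markers was 4.87 to 4.97 on Cbfb+/MYH11 arrays, against 5.71 to 7.70 on WT arrays. On Cbfb-/- arrays it was 4.95 to 5.13, against 7.06 to 7.14 on Cbfb+/+ arrays. The 7 platelet markers were at 5.93 to 6.07 with the fusion and 7.36 to 9.16 in WT, and at 6.34 to 6.40 in Cbfb-/- and 8.54 to 8.64 in Cbfb+/+. These markers were fitted without the filter, since several pass it only where they are high. With the fusion 6 of 8 macrophage and 5 of 7 platelet markers fell, against 4.17% of all genes in that fit. In Cbfb-/- blood 7 of 8 and 7 of 7 fell, against 3.81%. The 6 mast cell and basophil markers averaged 5.95 to 6.04 with the fusion, against 4.3 to 4.63 in WT, and 3.98 to 4.13 in Cbfb-/-, against 4.35 to 4.53 in Cbfb+/+. Of the 6, Ms4a2, Cpa3 and Hdc were above 6 on fusion arrays alone, while the defining marker Fcer1a was at 2.56 to 3.17 there, and Mcpt8 and Kit also lay under the filter. In the filtered fit 2 of 7 erythroid markers rose with the fusion and 0 fell, near the 30.5% of all tested genes that rose. They were Klf1 (0.86) and Gata1 (0.77), the latter not called after quantile normalization. In Cbfb-/- blood 0 erythroid markers were called. The effects on Klf1 and Gata1 differed by 1.10 and 1.20, higher in the fusion cross, as for 14.9% of all tested genes.

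Neural and liver transcripts varied between groups and between array pairs. The 7 neural markers averaged 7.40 to 7.64 on Cbfb-/- arrays, against 4.09 to 4.31 on Cbfb+/+ arrays, and 4.94 and 4.81 on Cbfb+/MYH11 arrays 1 and 2 and 6.52 and 6.66 on arrays 3 and 4, against 3.97 to 4.79 on WT arrays. The 7 liver or visceral endoderm markers averaged 8.09 to 8.33 in Cbfb-/- and 6.59 to 6.64 in Cbfb+/+. They were at 5.01 to 6.15 with the fusion, against 7.86 and 8.06 on WT arrays 1 and 2 and 5.41 and 5.52 on WT arrays 3 and 4. No endothelial marker of 5 passed the filter.

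For each called member, the nearest other genes were found by the root mean square difference of values centred on each gene's mean over the 14 arrays, among all tested genes. Closest to Cdkn1a, whose own values had an SD of 0.61, were Slc25a12 (0.18), the mitochondrial aspartate and glutamate carrier, and Plgrkt (0.20). Ccng1 was followed most closely by Ahi1 (0.12) and by Scarb1 (0.12), a lipoprotein receptor. Nop9 and Glod4 (0.07 each) lay nearest to Ei24, Lonp1 (0.11) and Wdr5 (0.13) to Aen, and Slc16a10 and Fbxo30 (0.11 and 0.13) to Sesn1.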

How the data were processed

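Blood RNA was isolated with RNA-Stat 60 and labelled with biotin for Affymetrix arrays, per the labels' protocols. The deposited values are on the log2 scale, judged by their range. RMA and Affymetrix Expression Console are named, without versions, per the submitters' processing notes. All 45101 probe sets of 14 arrays were read without further normalization.

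A gene (18194 in all) was represented by its probe set of highest mean over the arrays. Genes at a log2 value of 6 or more on at least 3 arrays, 7393 in all, were fitted as 4 groups in 1 model with limma 3.58.1 (R 4.3.3), adjusted by Benjamini and Hochberg over all of them. The same fit was run on 12190 probe sets. Calls needed an adjusted p under 0.05 and 1.5-fold, and "rose" or "fell" is kept for them. The method was tested on simulated data. The number of arrays limits the precision.

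Members, gene lists and the array pairs were chosen with earlier results of these data known. Listed genes without a probe set of their symbol were not analysed here. Named genes were all members, at most 6 called genes of a list per comparison, and the 2 nearest genes of each called member; Mdm4, Ppm1d, Gadd45a and other uncalled values were added after they were seen. Same-numbered arrays of the Cbfb+/MYH11 cross deviated together, with correlations across genes of 0.521, 0.407, 0.499 and 0.499. Arrays of other numbers in the same pair (1 and 2, or 3 and 4) did so as much, at up to 0.514. The values thus show the array pairs and not the single numbers. In the Cbfb-/- cross same-numbered arrays had correlations of 0.034, 0.011 and 0.017. The main fit used no pairing, which entered only in the replicate block and in the fits within array pairs. Alternatives covered scaling, filter, probe set, arrays in the fit, replicate block, array pairs and single arrays left out.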

Additional observations from a re-analysis of the deposited data

Results flagged for a closer look

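For 4 members the effects in the mutants differed by the test of the difference itself (limma, adjusted p under 0.05 and at least 1.5-fold). The fusion effect minus the null effect was 1.15 for Ccng1, 0.86 for Phlda3, 0.82 for Cdkn1a and 0.60 for Mdm2. The cause was not tested.

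In 14 groups of 4 arrays (7 members in Cbfb+/MYH11 and WT blood), a single array stood far from the rest in 2. On WT array 2 Mdm2 was at 7.98, with the next WT array at 7.63, and Cdkn1a was at 6.67, with the next at 6.43. The gaps were 0.928 and 0.966 of the group's range. Chance alone flags about 1 in 20 such groups if their 4 arrays are independent, which the array pairs of this cross make doubtful. Both flags fell on the same array, so they are not independent of each other.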

How the results depend on the processing

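Of the 4 rises with the fusion, those of Cdkn1a and Ccng1 kept their call under all alternatives except the 6 putative pools, where 0 members were called in any comparison (limma). The count of 4 rises stayed at 4 without any single array. It became 3 with the filter at 7, the mean of a gene's probe sets and without WT arrays 1 and 2. With quantile normalization 2 members rose (Cdkn1a and Ccng1) and 1 fell (Sesn1). In Cbfb-/- blood the 1 fall became 2 with quantile normalization (Sesn1 and Phlda3). With arrays centred on their medians 2 members rose there and 1 fell. Calls in either direction ranged from 1 to 3 in that cross without single arrays. For the difference of the effects the count of 4 became 2 within arrays 1 and 2 and ranged from 3 to 5 without single arrays, with 5 also without WT arrays 1 and 2, an alternative chosen after seeing the data. Between Cbfb+/+ and WT blood 0 became 1 within arrays 1 and 2 (Mdm2) and stayed at 0 without single arrays. The replicate block, for which the labels' numbers pair arrays of the fusion cross, gave 4, 1 and 4 called members and changed no member's call. With it 5 regulators rose with the fusion, and 6 cell cycle genes and 3 relatives in Cbfb-/- blood. It could not be fitted between the crosses.

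Signs turned only in changes that were not called. With quantile normalization Mdm2 was at -0.128 with the fusion, Ccng1 at -0.092 in Cbfb-/- blood and Aen at 0.017 between the wild types. Within arrays 1 and 2, Cdkn1a was at -0.029 and Aen at 0.022 between the wild types, where leaving out single arrays gave -0.01 to 0.10 and -0.13 to 0.10. Without WT arrays 1 and 2 the Ei24 difference of effects was -0.027. Aen could not be tested with the filter at 7 or with the mean of its probe sets. Signal over background limits Aen most, since its main probe set lay near the filter.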

Other observations

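Relatives of the members went several ways. Phlda1, a relative of Phlda3, rose to 9.49 ± 0.18 in Cbfb+/MYH11 blood, against 6.30 ± 0.65 in WT blood (SD, n = 4 each; limma, adjusted p = 4.95e-07), and to 7.99 ± 0.09 in Cbfb-/- blood, against 6.55 ± 0.13 in Cbfb+/+ blood (SD, n = 3 each; adjusted p = 0.00231). Ccng2, the paralogue of Ccng1, was at 0.07 with the fusion and fell by 0.73 in Cbfb-/- blood, and its effects differed by 0.80 (adjusted p = 0.00184). Of the kinase inhibitors related to Cdkn1a, Cdkn1b fell by 0.66 in Cbfb-/- blood and was at -0.30 with the fusion, while Cdkn1c rose by 1.71 in Cbfb-/- blood and was at 0.47 with the fusion. Within arrays 1 and 2 the fusion changes of Cdkn1b (-0.65) and Cdkn1c (1.03) were called. Within arrays 3 and 4 they were at 0.06 and -0.10, not called. Sesn3 was not called in either mutant (-0.28 and 0.80). Of 8 listed relatives 5 were tested: 1 rose with the fusion (30.5% of all tested genes did), and 2 rose and 2 fell in Cbfb-/- blood (19.5% and 6.65%). The Cbfb-/- calls ended on leaving out any 1 of 4 arrays for Cdkn1b and of 6 for Cdkn1c. Trp63 and Trp73, the p53 paralogues, lay under the filter.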
